A study of Mus musculus with 17 samples.

Results

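The genes described here are 10 mouse members of the PYHIN family, Aim2, Ifi203, Ifi204, Ifi205, Ifi207, Ifi208, Ifi209, Ifi211, Ifi213 and Mndal. They were chosen by gene symbol, and all 10 were found among the 55491 rows of each of the 2 count tables of the series, 1 for B cells and 1 for bone marrow dendritic cells (BMDC). All 10 passed the default filter on low counts in both cell types, and 9 passed a stricter filter in BMDC.

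PYHIN proteins carry a pyrin domain, which binds other pyrin domains, and in most members a HIN-200 domain, which binds DNA. Aim2 is the member best understood. It binds double-stranded DNA in the cytosol and recruits the adaptor ASC (encoded by Pycard), which brings in caspase-1 to cleave pro-IL-1β, pro-IL-18 and gasdermin D. Ifi204 is a nuclear and cytosolic DNA-binding protein often compared with human IFI16 and linked to STING signalling. STING is the adaptor that responds to cyclic dinucleotides made by the DNA sensor cGAS. It activates the kinase TBK1 and the factor IRF3, which switch on type I interferon, and many PYHIN genes are in turn induced by interferon.

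RNA sequencing was carried out on 17 libraries, 9 from splenic B cells and 8 from BMDC. The cells came from KPC mice, a pancreatic cancer model, per the series text, while the genotype label of every library is WT. Control cells were not treated. MSA2 cells were incubated with MSA2, a non-nucleotide STING agonist, and combination cells with MSA2 plus IPI-549, an inhibitor of the lipid kinase PI3Kγ. Each group held 3 libraries, except the BMDC combination with 2. No group had the inhibitor on its own. Dose, duration and mouse age are not given, nor whether replicates came from different animals, so the p-values may cover technical spread only. The treatment label reads Control throughout, and the groups were therefore read from the sample titles. Library totals were 41093440 to 51433008 counts in B cells and 34760025 to 73166643 in BMDC. The labels place B cells and BMDC in separate tables and library series, and a difference of level between the cell types cannot be told apart from a difference between those series.

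The labelled cell types were checked against their markers. In B cell Control and combination libraries the 12 B cell markers summed to 8697 to 9524 CPM (the counts-per-million value on the library total scaled by its TMM factor), and in BMDC libraries to 32.8 to 49.2 CPM. BMDC libraries held 14805 to 20438 CPM of 15 monocyte and macrophage markers and 10313 to 13006 CPM of 12 dendritic cell markers. The dendritic cell list does not separate the cell types, as it holds antigen presentation genes (H2-Aa and Cd74) that B cells also express, and it summed to 16932 to 18570 CPM in B cell Control and combination libraries. The B cell MSA2 libraries stood apart from the other B cell libraries. Their B cell markers summed to 4374 to 4905 CPM, and their monocyte and macrophage markers to 1544 to 1736 CPM against 51.2 to 72.2 CPM in Control. Their dendritic cell list summed to 8494 to 10753 CPM, also below the others. The sums for T cell, NK cell, neutrophil, mast cell and red cell precursor markers were higher there than in any other B cell library. By library number these libraries also come after all the other B cell libraries. What those numbers stand for is not given, and an effect of handling cannot be told apart from MSA2 in B cells. All member values of B cells with MSA2 are therefore read beside these marker sums.

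The members lie in 1 cluster on mouse chromosome 1 (GRCm38), between 173350879 and 174031810, a span of 680.9 kb. Aim2 opens the cluster (ENSMUSG00000037860, 173350879 to 173466040). It is followed by Ifi213 (ENSMUSG00000073491, 173566283 to 173599274), Ifi209 (ENSMUSG00000043263, 173630917 to 173647928) and Ifi208 (ENSMUSG00000066677, 173673675 to 173698395). Next are Ifi207 (ENSMUSG00000073490, 173723427 to 173741747) and Ifi204 (ENSMUSG00000073489, 173747293 to 173766943). Mndal (ENSMUSG00000090272, 173849126 to 173942491) has a gene model that spans both Ifi211 (ENSMUSG00000026536, 173896345 to 173913046) and Ifi203 (ENSMUSG00000039997, 173920407 to 173942672). Ifi205 closes the cluster (ENSMUSG00000054203, 174011998 to 174031810). Aim2, Ifi209 and Ifi208 are on the plus strand and the other 7 on the minus strand. Exons of Mndal and Ifi203 share 37 bases on the same strand.

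Promoter windows from RefSeq (GRCm38.p6), which run from 250 bases before to 50 bases after an annotated start site, were found for 9 of the 10 members, the exception being Ifi204. They were searched on both strands for GAAANNGAA, the core of the element that interferon-activated factors bind. A match was found in 7 of the 9 members (77.8%), in 11 of 18 interferon reference genes with a window (61.1%) and in 9.76% of all 27025 genes with a window (8.56% of 32851 windows). Aim2 and Ifi209 had no match in this window. The stretch around the match on the coding strand, with the match in capitals, is shown for the 7 genes because it also shows how alike the promoters are.

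Ifi203, chr1:173942494-173942552, minus strand: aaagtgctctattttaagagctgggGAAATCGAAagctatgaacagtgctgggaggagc
Mndal, chr1:173880190-173880248, minus strand: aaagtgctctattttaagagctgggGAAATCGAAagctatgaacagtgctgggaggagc
Ifi205, chr1:174031856-174031914, minus strand: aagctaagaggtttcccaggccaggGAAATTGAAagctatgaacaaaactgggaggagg
Ifi211, chr1:173913050-173913108, minus strand: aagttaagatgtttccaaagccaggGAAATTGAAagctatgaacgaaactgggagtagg
Ifi207, chr1:173741817-173741875, minus strand: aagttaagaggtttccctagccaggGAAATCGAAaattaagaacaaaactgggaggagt
Ifi208, chr1:173673582-173673640, plus strand: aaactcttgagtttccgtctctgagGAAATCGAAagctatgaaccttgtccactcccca
Ifi213, chr1:173599312-173599370, minus strand: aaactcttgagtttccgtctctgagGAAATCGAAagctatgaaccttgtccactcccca

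The 59 bases were identical in Ifi203 and Mndal, and identical in Ifi208 and Ifi213. Ifi205 and Ifi211 shared 53 of the 59 bases, and Ifi205 and Ifi207 shared 51. Between Ifi207 and Ifi208, 28 bases were the same. Counted from the start site, the match began between -73 (Ifi213) and -35 (Ifi203) in 6 of the genes and at -134 in Ifi205. The RefSeq start sites of Aim2 and Mndal lie inside the longer GENCODE gene models given above. A second start site of Mndal and the first transcribed bases of Ifi205 each held a further match on the opposite strand. The letters GAGGAAGT, bound by the myeloid and B cell factor PU.1, were in the Aim2 window, at -113 to -106, and in 3.2% of all windows. A further search, for the GAS-like letters TTCNNNGAA, matched 0 of 9 members, 5 of 18 interferon reference genes (27.8%) and 9.55% of all genes. These matches describe the letters in the windows, and binding was not measured.

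The members also resemble one another in their transcripts, which bears on how their reads could be divided. Of the 50-base stretches in the GENCODE M21 transcripts of Ifi211, 72.8% occurred in another gene, 44.7% in Ifi205 and 30.1% in Ifi204. For Ifi209 it was 33.7%, nearly all shared with the neighbouring PYHIN gene Ifi214, and for Ifi208 20.9%, mostly shared with Ifi213. Aim2 shared 0.742% and Ifi207 7.29%. The share was 20% for Ifi204, 19.6% for Mndal, 18.6% for Ifi205, 15.6% for Ifi213 and 12.4% for Ifi203. Values of these genes, of Ifi208 and Ifi211, and of Ifi209 against Ifi214, are uncertain to that extent. Those of Aim2 and Ifi207 rest almost entirely on their own sequence.

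**Figure D1:**
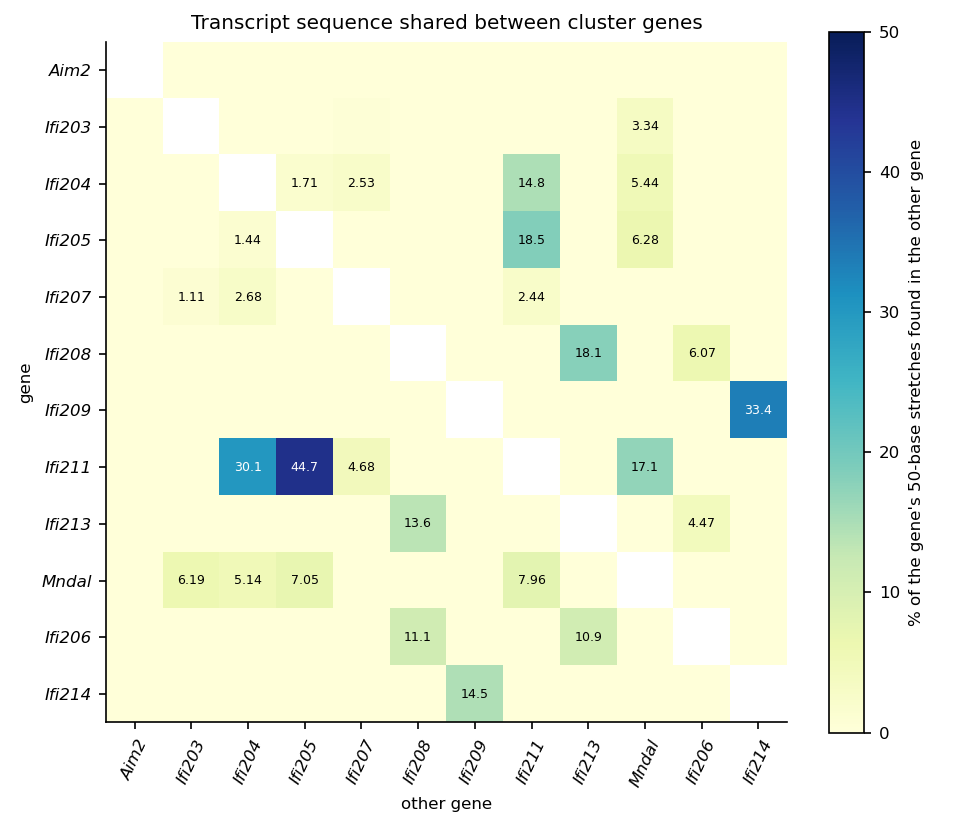
Each square gives the percentage of the 50-base stretches of the gene named at the left that also occur in the transcripts of the gene named below, with values of 1% or more written in. Ifi211 shares 44.7% of its stretches with Ifi205, and Aim2 has an empty row.

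In untreated cells the order of the members differed between the cell types. Levels per kilobase of exon (CPM per kb) allow the genes to be ordered. In Control B cells Ifi209 was highest at 66.8 CPM per kb, followed by Ifi203 at 33.1, Mndal at 29.7 and Aim2 at 13.8. Ifi213 (4.10), Ifi208 (2.72), Ifi211 (1.25) and Ifi205 (0.840) followed, and Ifi207 (0.235) and Ifi204 (0.115) were lowest. In Control BMDC the order was Ifi207 (12.8 CPM per kb), Aim2 (11.8), Ifi209 (10.3) and Ifi204 (9.32), then Ifi211 (6.66), Mndal (5.75) and Ifi203 (2.77). Ifi205 (0.147), Ifi213 (0.0491) and Ifi208 (0.0406) were near the bottom of detection there, with 69, 38 and 25 counts in the 3 Control libraries together. The highest genes in BMDC are thus close, and the spread of Ifi209 (36.5 ± 7.18 CPM, SD, n = 3) covers its distance to its neighbours. Summed over the 10 members, Control libraries held 647 to 687 CPM in B cells and 192 to 227 CPM in BMDC.

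**Figure D2:**
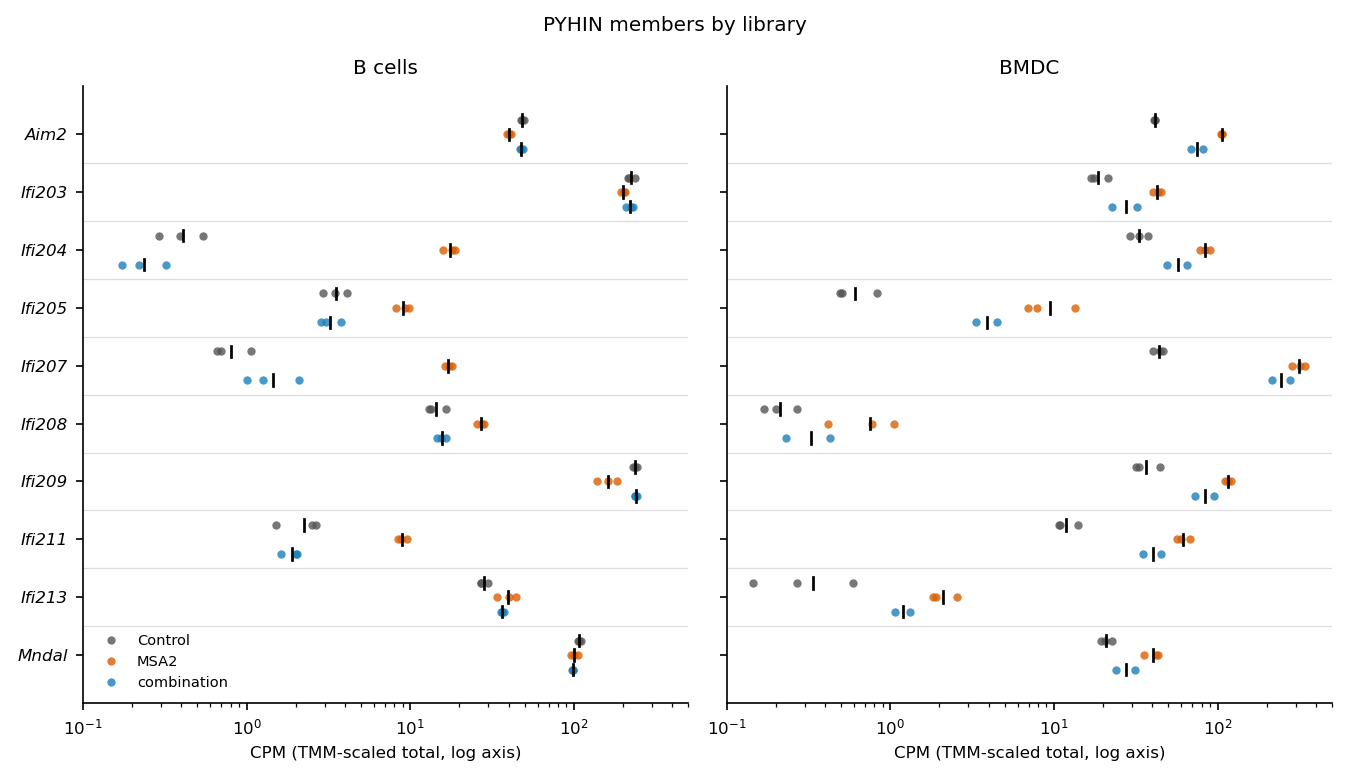
Each point is the CPM of 1 library on a log axis, coloured by group, and each short black line is the group mean. In BMDC the MSA2 libraries lie above Control for all 10 members with the combination mean between them, and in B cells Ifi204 and Ifi207 show the widest separation.

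In BMDC with MSA2 the whole family was higher than in Control. All 10 members passed the test against Control (edgeR quasi-likelihood test, Benjamini-Hochberg adjusted p under 0.05 over all genes tested, as for every adjusted p here), beside a background of 14.6% of 14614 genes called higher and 13.5% called lower. Every MSA2 library lay above every Control library for each of the 10 genes, which held for 20.3% of all genes tested. Their median log2 fold change was 1.70, against -0.01 over all genes tested. The family sum went from 192 to 227 CPM in Control to 721 to 820 CPM with MSA2.

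Aim2 stood at 41.5, 41.0 and 41.4 CPM in the Control libraries and at 104.7, 106.1 and 106.4 CPM with MSA2. Both groups were tight and did not overlap. The log2 fold change was 1.36 ± 0.068 (SE; adjusted p = 1.15e-07), or 2.56-fold.

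Ifi207, a member with a long repeat region reported to stabilise STING, was the most abundant member after treatment. It was at 44.6, 40.6 and 46.3 CPM in Control and at 320.3, 283.5 and 343.6 CPM with MSA2. Its log2 fold change of 2.85 ± 0.11 (adjusted p = 2.00e-08), or 7.21-fold, ranked 19 by p-value among the 14614 genes. Per kilobase it reached 92.3 CPM, ahead of Ifi211 at 34.4, Ifi209 at 32.6 and Aim2 at 30.2.

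Ifi204 was at 37.4, 29.3 and 32.9 CPM in Control and at 83.3, 78.1 and 90.0 CPM with MSA2, a log2 fold change of 1.34 ± 0.11 (adjusted p = 7.52e-06). Ifi211 was at 14.0, 10.8 and 10.8 CPM in Control and at 67.6, 56.5 and 60.0 CPM with MSA2 (2.37 ± 0.13, adjusted p = 2.07e-07). Ifi209 was at 44.7, 33.0 and 31.7 CPM and rose to 115.4, 111.3 and 120.4 CPM (1.67 ± 0.13, adjusted p = 4.08e-06). These genes share sequence with other members or with Ifi214. The rise of Ifi209 was the same size, 1.67, after its counts were added to those of Ifi214. That sum could hardly differ, as Ifi214 had a mean of 0.0924 CPM in Control and 0.771 CPM with MSA2.

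The smallest fold changes were those of Ifi203 and Mndal. Their promoter stretches were identical, as were those of Ifi208 and Ifi213, which rose by 1.73 and 2.64. A link between promoter and response was not tested. Ifi203, a nuclear HIN-200 protein, was at 21.4, 16.8 and 17.6 CPM in Control and at 43.2, 40.2 and 45.1 CPM with MSA2 (1.20 ± 0.13, adjusted p = 3.47e-05). Mndal was at 22.5, 19.5 and 20.5 CPM and at 41.9, 35.7 and 43.2 CPM (0.95 ± 0.11, adjusted p = 7.09e-05). Both groups were separated for both genes.

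The low genes changed as well, with wide errors. Ifi205, reported to control expression of the inflammasome adaptor ASC in macrophages, was at 0.510, 0.493 and 0.836 CPM in Control and at 13.5, 6.96 and 7.87 CPM with MSA2, with 1 MSA2 library well above the other two. Its log2 fold change of 3.95 ± 0.31 (adjusted p = 3.72e-06) was the largest of the family. Ifi213 was between 0.144 and 0.596 CPM in Control and between 1.81 and 2.56 CPM with MSA2 (2.64 ± 0.36, adjusted p = 0.000280). Ifi208 was between 0.170 and 0.269 CPM in Control and between 0.419 and 1.05 CPM with MSA2 (1.73 ± 0.44, adjusted p = 0.0127). Without Control replicate 1 the adjusted p of Ifi208 was 0.0505.

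With MSA2 plus IPI-549, the BMDC mean of every member lay between the means of Control and MSA2. How many of all genes had this order was not computed. Against Control, 8 of 10 members were higher and none lower, beside 7.51% of genes called higher and 5.38% called lower, with a median log2 fold change of 1.04. Against MSA2, all 10 estimates were negative, from -1.26 for Ifi205 to -0.37 for Ifi207, and none passed the threshold. Their median was -0.58, against 0.007 over all genes tested. The combination libraries differed from each other, replicate 2 being below replicate 1 for all 10 members. The share of all genes with replicate 2 below replicate 1 was not computed either.

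Ifi207 was at 275.4 and 214.1 CPM in the combination, 2.48 ± 0.11 above Control on the log2 scale (adjusted p = 1.14e-07). Ifi211 was at 45.4 and 35.1 CPM (1.76 ± 0.14, adjusted p = 6.75e-06) and Aim2 at 81.8 and 68.9 CPM (0.87 ± 0.075, adjusted p = 1.53e-05). Ifi209 was at 95.7 and 72.5 CPM (1.21 ± 0.14, adjusted p = 0.000188) and Ifi204 at 65.2 and 49.1 CPM (0.79 ± 0.13, adjusted p = 0.00165). All of these lay above every Control library. With 2 combination libraries such a separation is easier to reach, and its share over all genes was not computed.

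Ifi205 was at 4.46 and 3.34 CPM (2.69 ± 0.35, adjusted p = 0.000336) and Ifi213 at 1.31 and 1.07 CPM (1.83 ± 0.42, adjusted p = 0.0136). Ifi203 was at 32.1 and 22.7 CPM, and its change was the smallest that passed (0.56 ± 0.14, adjusted p = 0.0221). Without combination replicate 1 the adjusted p was 0.29 for Ifi203 and 0.115 for Ifi213, and without Control replicate 2 it was 0.0776 and 0.0543. Without Control replicate 3 that of Ifi203 was 0.0591. Mndal, at 31.1 and 24.0 CPM, had a log2 fold change of 0.40 ± 0.12 (adjusted p = 0.0531) that passed without combination replicate 2 (0.58, adjusted p = 0.0228), without MSA2 replicate 1 (adjusted p = 0.0478) and without MSA2 replicate 2 (adjusted p = 0.0304). It also passed with DESeq2 (adjusted p = 0.0195), with no filter (0.00111) and with the compared groups alone (0.0442). Ifi208, at 0.429 and 0.231 CPM, gave 0.62 ± 0.54 (adjusted p = 0.538).

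The direct comparison of the combination with MSA2 depended on the tool. With edgeR's quasi-likelihood test 0 of 10 members were called, as were 0% of genes in either direction, yet all 10 members had an unadjusted p under 0.05, as did 10.9% of all genes. DESeq2 called 7 members lower, beside 1.2% of the genes to which it gave an adjusted p, and limma-voom 0, beside 0.0137%. With no filter on low counts edgeR called 8 lower, beside 1.84%. Without MSA2 replicate 2, the deepest BMDC library, edgeR called 3 lower, Aim2, Ifi205 and Mndal, beside 0.575% of genes. In 9 members both combination libraries lay below every MSA2 library, which held for 12.6% of all genes tested. Aim2 ranked 7 by p-value among all genes (log2 fold change -0.49, 95% interval -0.65 to -0.32, adjusted p = 0.0954). Ifi207 had the smallest difference, -0.37, with an interval of -0.61 to -0.12.

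**Figure D3:**
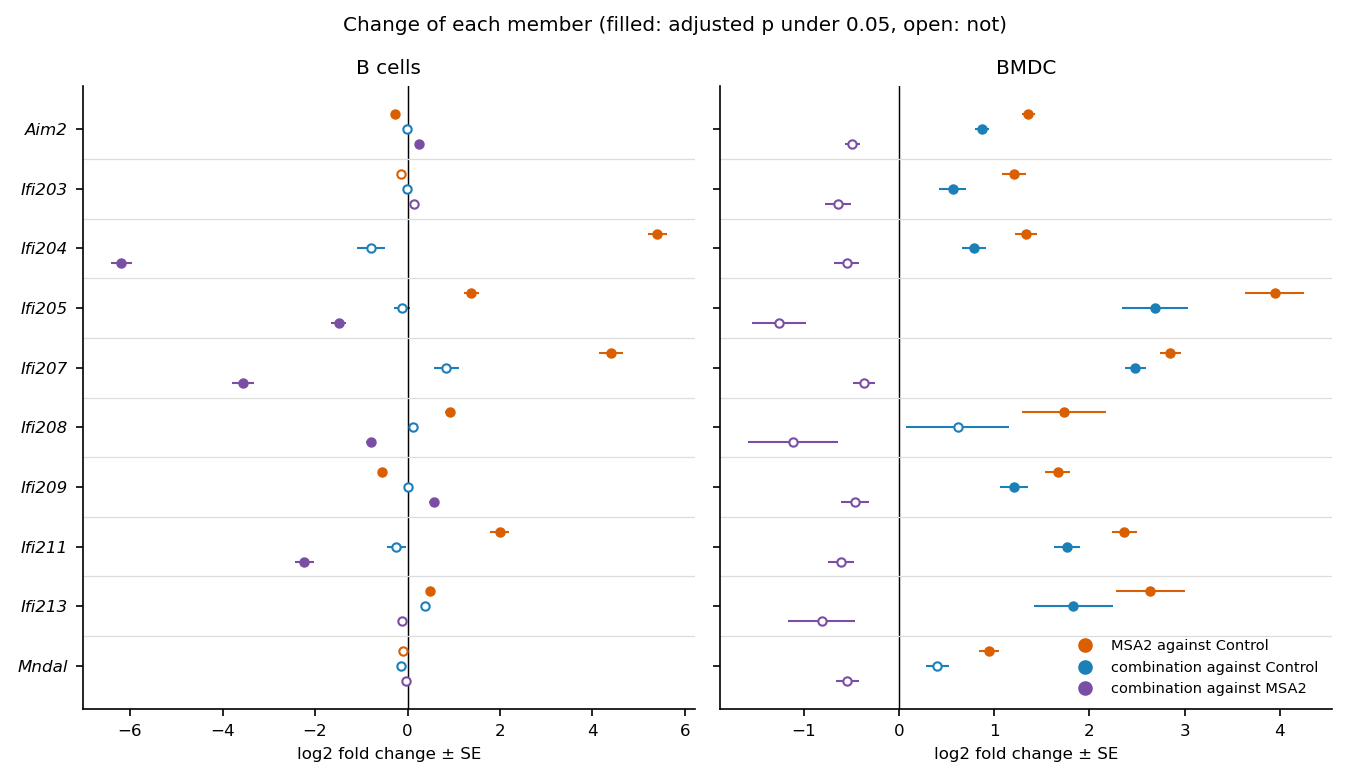
Points are log2 fold changes with their standard errors for 3 comparisons in each cell type, filled where the adjusted p is under 0.05 and open where it is not. In BMDC the orange and blue points lie to the right of 0 for all members, and in B cells the changes with MSA2 run from -0.55 for Ifi209 to 5.40 for Ifi204.

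In B cells with MSA2 the family moved in both directions. Against Control, 6 members were higher (Ifi204, Ifi205, Ifi207, Ifi208, Ifi211 and Ifi213) and 2 were lower (Aim2 and Ifi209), beside 24.9% of 16180 genes called higher and 18.5% called lower. Ifi203 and Mndal did not pass. The members highest in Control B cells were thus lower or not called, and the gains fell on members that were low there. The family sum was 647 to 687 CPM in Control and 601 to 648 CPM with MSA2. As given above, markers of other cell types were higher in the same MSA2 libraries: 15 of 15 monocyte and macrophage markers were called higher, with a median log2 fold change of 5.40, and 12 of 12 B cell markers lower, with a median of -0.97. The part of these cells in the members' values was not tested, and in bulk RNA fewer cells of a type and less RNA per cell cannot be told apart.

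Ifi204 was at 0.539, 0.393 and 0.292 CPM in the Control libraries, 58 counts in all, and at 15.8, 18.7 and 18.1 CPM with MSA2. This was the largest change of the family, at 5.40 ± 0.21 on the log2 scale (adjusted p = 8.21e-09), or 42.2-fold. Ifi207 was at 1.06, 0.656 and 0.697 CPM in Control and at 16.2, 17.1 and 17.9 CPM with MSA2 (4.40 ± 0.25, adjusted p = 1.25e-07). Both genes were among the higher members of Control BMDC, at 33.2 and 43.8 CPM.

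Ifi211 was at 2.68, 1.51 and 2.52 CPM in Control and at 8.41, 9.54 and 8.78 CPM with MSA2 (1.99 ± 0.20, adjusted p = 1.00e-05). Ifi205 was at 2.92, 3.48 and 4.13 CPM and at 9.32, 8.14 and 9.81 CPM (1.37 ± 0.16, adjusted p = 4.06e-05). Ifi208 was at 13.0, 13.4 and 16.5 CPM and at 28.1, 25.7 and 27.5 CPM (0.92 ± 0.10, adjusted p = 2.88e-05). Ifi208 and Ifi205 were near 0 in Control BMDC, at 0.214 and 0.613 CPM. Ifi213 changed least among those called higher, from 29.8, 27.3 and 27.1 CPM to 40.0, 44.6 and 34.0 CPM (0.49 ± 0.097, adjusted p = 0.00162).

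Aim2 was at 47.6, 48.2 and 49.4 CPM in Control and at 41.3, 38.9 and 40.3 CPM with MSA2 (-0.27 ± 0.063, adjusted p = 0.00532). Without library factors the difference was -0.18 with an adjusted p of 0.0627. Ifi209 was at 236.0, 231.2 and 243.5 CPM in Control and at 182.8, 138.9 and 162.3 CPM with MSA2 (-0.55 ± 0.094, adjusted p = 0.000590). Ifi203 was at 214.3 to 235.4 CPM in Control and 193.8 to 206.0 CPM with MSA2 (-0.15 ± 0.072, adjusted p = 0.125). Mndal was at 106.1 to 110.0 CPM and 96.0 to 105.4 CPM (-0.10 ± 0.063, adjusted p = 0.211). The ranges of these 4 genes did not overlap between the groups, as for 25.1% of all genes, which were lower with no overlap. Each difference was smaller than the median difference of the B cell markers in the same libraries.

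**Figure D4:**
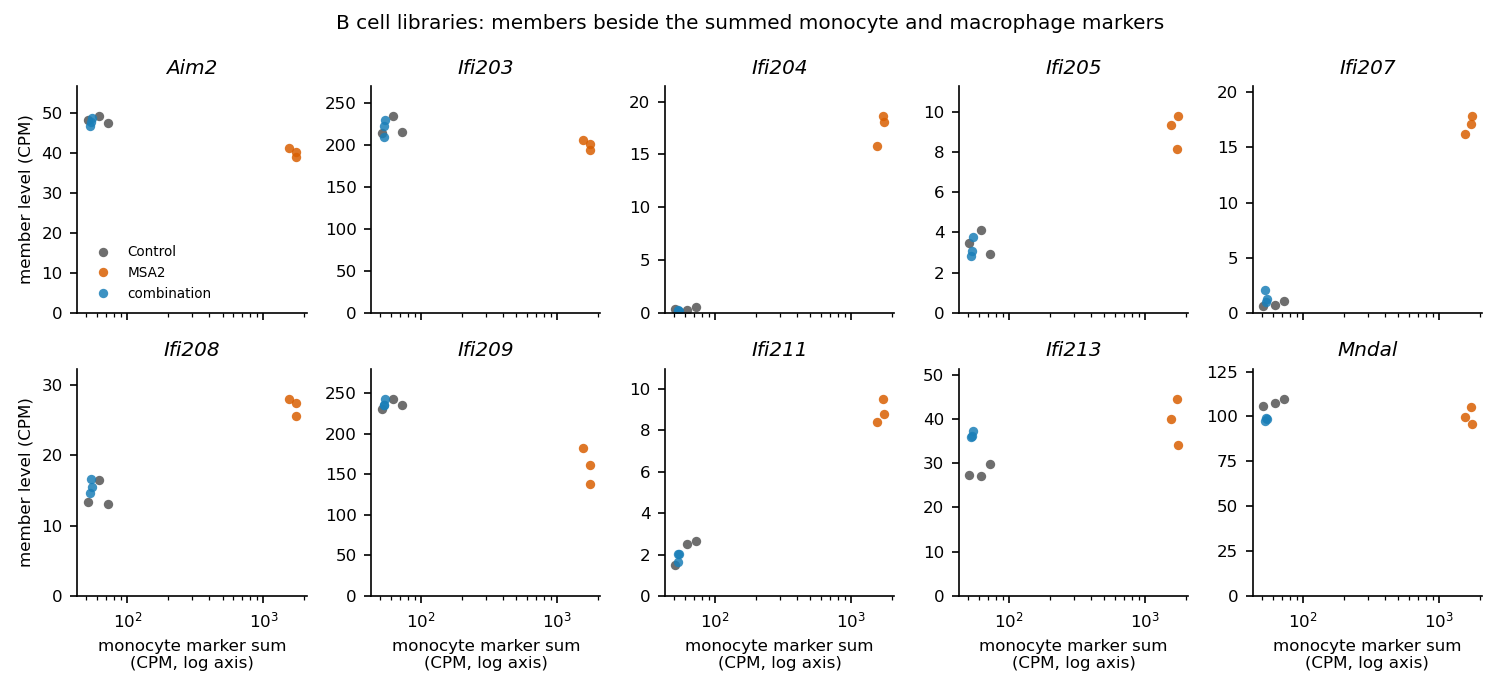
Each panel plots the CPM of 1 member against the sum of 15 monocyte and macrophage markers (log axis) in the 9 B cell libraries. The 3 MSA2 libraries lie at 1544 to 1736 CPM of marker sum, apart from the other 6 at 51.2 to 72.2 CPM. Along that axis the Control and combination libraries lie together. In member level the combination lies above every Control library for Ifi213 (36.0 to 37.3 against 27.1 to 29.8 CPM). For Mndal it lies below every Control library (97.6 to 98.9 against 106.1 to 110.0 CPM).

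In B cells with MSA2 plus IPI-549 no member was called against Control. All adjusted p-values were between 0.128 and 0.991, beside 0.686% of genes called higher and 0.371% called lower. With edgeR 3 of 10 members had an unadjusted p under 0.05, and 9.66% of all genes did. DESeq2 called 2 members higher, Ifi207 and Ifi213, beside 1.22% of genes, and limma-voom called 0, beside 0.698%. Ifi213 was at 37.3, 36.0 and 36.2 CPM, above every Control library (0.38 ± 0.097, adjusted p = 0.128), and was called without MSA2 replicate 3, which enters the shared estimate of the spread (0.39, adjusted p = 0.0284). Aim2 was at 48.9, 46.7 and 47.8 CPM (-0.02, 95% interval -0.16 to 0.12) and Ifi209 at 243.7, 235.9 and 235.7 CPM (0.01, interval -0.20 to 0.21). Ifi204 was at 0.173, 0.321 and 0.220 CPM, 32 counts in all (-0.79, interval -1.46 to -0.13, adjusted p = 0.407). Ifi207 was at 1.25, 2.08 and 1.01 CPM (0.84, interval 0.24 to 1.44, adjusted p = 0.295). Ifi208 was at 15.5, 14.7 and 16.6 CPM, Ifi205 between 2.84 and 3.79 CPM and Ifi211 between 1.63 and 2.03 CPM, and their ranges overlapped those of Control. Ifi203 was between 209.5 and 229.6 CPM (-0.01, interval -0.17 to 0.15), and Mndal, between 97.6 and 98.9 CPM, lay below every Control library (-0.13 ± 0.063, adjusted p = 0.532). The monocyte and macrophage markers of these libraries summed to 53.1 to 54.6 CPM.

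The combination against MSA2 in B cells gave 2 members higher (Aim2, 0.25, and Ifi209, 0.56) and 5 lower, beside 14.1% and 22.9% of genes. The lower members were Ifi204 (-6.19 ± 0.23), Ifi207 (-3.56 ± 0.24), Ifi211 (-2.23 ± 0.20), Ifi205 (-1.49 ± 0.16) and Ifi208 (-0.79 ± 0.10), with adjusted p-values from 5.77e-09 to 9.26e-05. Without library factors the difference of Aim2 was 0.14 (adjusted p = 0.152). For the 5 lower members every MSA2 library lay above all 6 other B cell libraries, and for Aim2, Ifi203 and Ifi209 every MSA2 library lay below them. Of all genes tested, 24% lay above and 15.6% below in this way. This comparison has the same MSA2 libraries, with the same marker sums, as the comparison with Control.

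The response to MSA2 differed between the cell types for 8 of 10 members in a fit of all 17 libraries, beside 37% of 17740 genes. The log2 fold change was greater in BMDC than in B cells by 2.58 ± 0.36 for Ifi205, 2.23 ± 0.17 for Ifi209, 2.15 ± 0.31 for Ifi213 and 1.63 ± 0.093 for Aim2. For Ifi204 and Ifi207 the difference was -4.05 ± 0.23 and -1.54 ± 0.25, the rise in B cells being the greater. The response to the combination against Control differed for 7 members, all greater in BMDC, beside 3.04% of genes, and that to the combination against MSA2 for 7 members, beside 24.1% of genes. These differences rest on the B cell MSA2 libraries where MSA2 enters. The difference for the combination against Control does not contain them in its contrast, and there Ifi205 stood at 2.77 ± 0.39, Ifi211 at 1.97 ± 0.26 and Aim2 at 0.86 ± 0.098 (adjusted p = 0.000297, 0.000115 and 2.67e-05).

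Other genes of the cluster were Ifi206, Ifi214 and Ifi202b, while Pyhin1, Pydc3 and Pydc4 were not among the rows. Ifi206, which lies between Aim2 and Ifi214, was higher with MSA2 in BMDC (1.68 ± 0.23, adjusted p = 0.000278) and in B cells (0.67 ± 0.078, adjusted p = 3.55e-05). Ifi214 was higher in BMDC (2.99 ± 0.39, adjusted p = 0.000193) and was not called in B cells (0.09 ± 0.12). Ifi202b had 1 count in 1 library of each cell type and was not tested. Of 12 genes beside the cluster, 7 were tested in BMDC, where 2 were higher and 3 lower with MSA2, with a median log2 fold change of -0.19. Igsf9 (1.09) and Slamf9 (0.44) were the higher genes, and Dusp23 (-0.50) and Slamf8 (-0.25) were among the lower. In B cells with MSA2, 6 of 10 tested neighbours were higher and 3 lower, with a median of 1.44 beside 0.71 for the members.

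**Figure D5:**
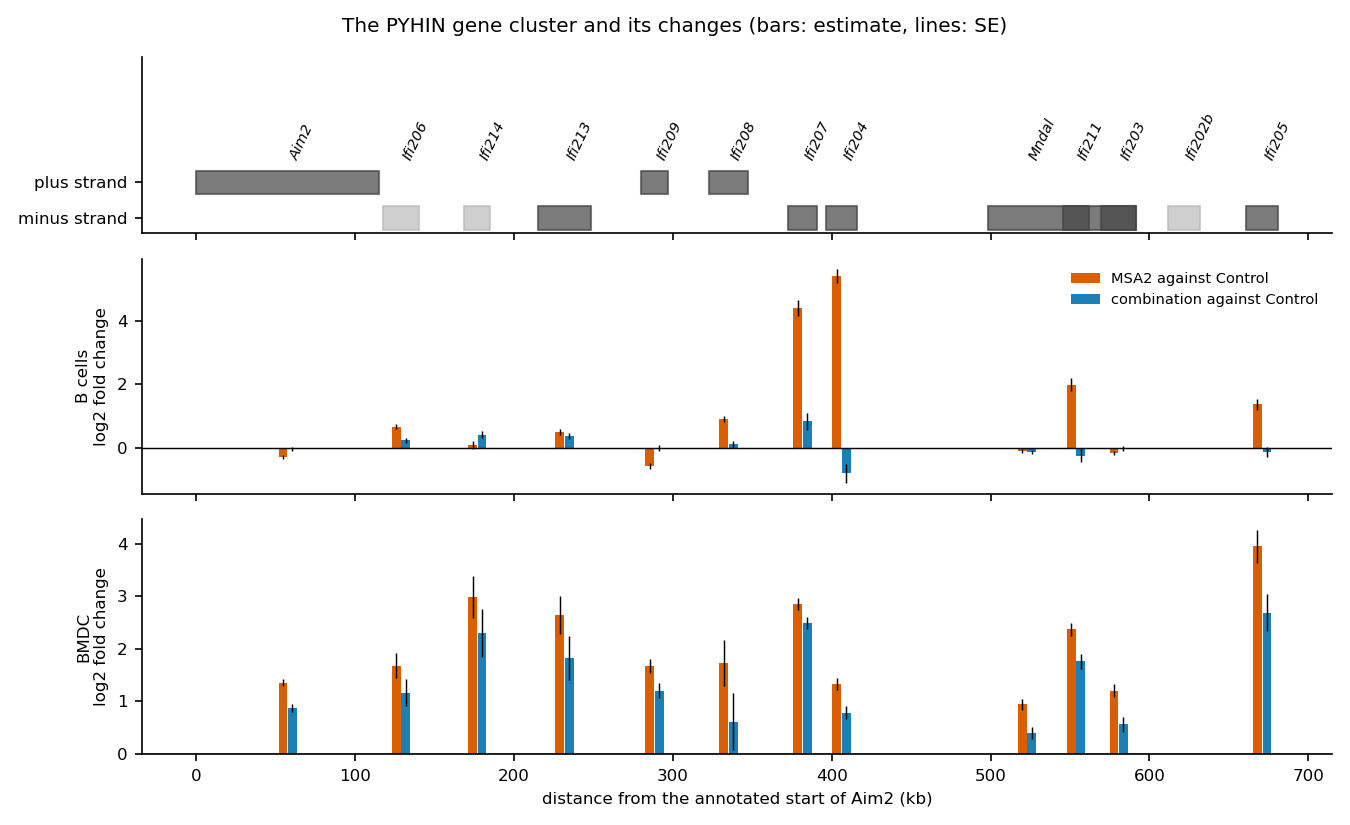
The upper panel draws the 13 PYHIN genes of the cluster by strand against the distance from the start of Aim2 in kb, members dark and other PYHIN genes light, and the lower panels give log2 fold changes with SE at each gene's middle (for Mndal, the middle of the part before Ifi211). In BMDC all bars are above 0 across the cluster, and in B cells the tall bars are those of Ifi207 and Ifi204 with MSA2.

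Sums over near copies gave the changes without the division of reads shared inside each sum. Reads shared with genes outside a sum were still divided, such as those of Mndal, which shared 6.19% of its 50-base stretches with Ifi203. Ifi204, Ifi205, Ifi211 and Mndal were added together, as were Ifi206, Ifi208 and Ifi213, and Ifi209 and Ifi214. With MSA2 in BMDC the sums rose by 1.55 ± 0.11, 1.86 ± 0.21 and 1.67 ± 0.13 on the log2 scale, and with the combination by 0.95, 1.24 and 1.21. In B cells with MSA2 the changes were 0.25 ± 0.062, 0.66 ± 0.069 and -0.49 ± 0.095 (adjusted p = 0.00632, 1.44e-05 and 0.00148). The first of these sums went from 113.9 CPM in Control, most of it Mndal, to 135.8 CPM with MSA2.

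The partners of AIM2 did not move as 1 group. Of 14 inflammasome genes in BMDC with MSA2, 7 were higher and 3 lower, with a median log2 fold change of 0.28. Il1b, the cytokine cleaved by caspase-1, rose by 1.36 ± 0.17 (adjusted p = 0.000153), and Nlrc4 by 1.33 ± 0.097 (adjusted p = 2.24e-06). Zbp1, a sensor of Z-form nucleic acid, rose by 1.11 and Casp4 by 0.51, and Casp1 itself by 0.38 ± 0.084 (adjusted p = 0.00547). Mefv (pyrin) fell by 1.31, Ninj1, which ruptures the membrane of dying cells, by 0.37 and Ripk1 by 0.18. Pycard (0.04 ± 0.071), Gsdmd (0.04 ± 0.052) and Il18 (0.23 ± 0.16) were not called. With the combination 4 of the 14 were higher and 1 lower, and none was called against MSA2.

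In B cells with MSA2, 7 of the 14 were higher and 2 lower. Nlrp3 (4.43 ± 0.33), Mefv (4.20 ± 0.30), Il1b (4.06 ± 0.23) and Il18 (2.41 ± 0.23) led, Pycard was higher by 0.64, and Nlrc4 (-0.72) and Casp4 (-0.56) were lower. These values stand in the libraries with the higher monocyte and neutrophil marker sums. With the combination against Control, Il1b was called lower (-1.10 ± 0.22, adjusted p = 0.0459) and the other 13 were not called.

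Among 18 genes of cytosolic DNA sensing in BMDC with MSA2, 6 were higher and 1 lower. They were Trex1, the exonuclease that degrades cytosolic DNA (2.72 ± 0.19), Irf7 (1.29 ± 0.13), Tlr9 (1.08 ± 0.16), Cgas (0.72 ± 0.17), Samhd1 (0.39) and Tbk1 (0.31), and the lysosomal nuclease gene Dnase2a was lower (-0.23). In B cells with MSA2, 4 were higher and 6 lower, and with the combination against Control only Trex1 (1.67 ± 0.16) and Irf7 (1.10 ± 0.12) of the 18 were called. Sting1 was not called in any of the comparisons within a cell type.

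The interferon reference genes give the setting for the members. Of 23 genes, 19 were higher in BMDC with MSA2 (median log2 fold change 1.55, beside 1.70 for the members) and 13 with the combination (1.13, beside 1.04). Against MSA2 the combination had a median of -0.43 and no call in this list, beside -0.58 for the members. In B cells 18 of 23 were higher with MSA2 and 8 with the combination. Ifit1, an RNA-binding antiviral protein, rose in B cells by 8.39 ± 0.25 with MSA2 and by 8.37 ± 0.25 with the combination (adjusted p = 1.74e-08), and Ifit2, Ifit3 and Isg15 rose by 5.45, 5.19 and 4.08 with the combination. Oas3 (0.12 ± 0.12) and Ifi44 (0.12 ± 0.13) were not called with the combination in B cells, where no PYHIN member was called, and both were higher there with MSA2 (2.27 and 1.03).

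The genes closest to each member in profile were found among those with a mean of at least 5 CPM, by Pearson correlation of log2(CPM + 1). In the 8 BMDC libraries 7 members reached that level and were compared with 9944 genes. Ifi203 and Mndal were near each other (r = 0.993), and Ifi209 was closest to Oasl2 (0.995), Ifi211 (0.994) and Ifi44 (0.993). Ifi211 was closest to Slfn3, Ifi44 and Samd9l, Ifi204 to Sp110, Parp9 and Tgs1, and Ifi207 to Dyrk2, Trim25 and Zcchc2. Aim2 was closest to Tlk2, Nck1 and Snx10. Between these members r ran from 0.884 (Ifi207 with Mndal) to 0.994 (Ifi209 with Ifi211).

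In the 9 B cell libraries the range is given for members that also reached 5 CPM outside the MSA2 libraries. It ran from -0.907 (Aim2 with Ifi208) to 0.976 (Aim2 with Ifi209). Ifi204, Ifi205 and Ifi207 reached the level of 5 CPM only through the MSA2 libraries, so their correlations and closest genes are not listed. Those closest to Aim2 were Hmgn1, Mtpn and Acss1. These correlations are descriptions over libraries that share 3 treatment groups, so a gene that changes with treatment resembles every other such gene.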

How the data were processed

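The files hold expected counts per gene that the authors estimated with RSEM, deposited as whole numbers in 1 table per cell type. Per the labels' protocols, RNA was isolated with a Qiagen kit and libraries were made with an Illumina kit. Per the submitters' processing notes, cutadapt 4.8, STAR 2.7.8a, RSEM 1.3.3, FastQC 0.11.8 and MultiQC 1.20 were used with GRCm38 (mm10). Strand and annotation release are not given in the sources used here. RSEM divides reads shared by similar genes, which bears on this family.

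For each cell type, 1 edgeR model (version 4.0.16, R 4.3.3) held the 3 groups. It used TMM factors, filterByExpr at its defaults and the quasi-likelihood test. P-values were adjusted by Benjamini-Hochberg over all genes tested, with calls at 0.05. Differences between cell types came from 1 fit of 6 groups. The scripts were tested on simulated data. No 2 libraries were identical.

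Members and lists were chosen with earlier results of these data known. All members are named, with up to 4 called genes per list, those against its majority, and fixed reference genes. Some further genes were chosen after their values were seen, such as Oas3 and Ifi44 in 1 contrast. A fixed reference gene is not reported here. Exon lengths and shared sequence came from GENCODE M21 (GRCm38). Replicate numbers are title suffixes. After removal of group means, all 3 same-suffix pairs of B cell MSA2 and combination libraries correlated at 0.291 to 0.487. The other 6 same-suffix B cell pairs gave -0.02 to 0.13 and the 7 same-suffix BMDC pairs -0.165 to 0.0963. Pairs of unlike suffix were not computed, and the labels state no pairing. Alternatives were other library factors, filters, DESeq2 1.42.0, limma-voom (limma 3.58.1), glmTreat at 1.5-fold, the compared groups alone, a replicate block, each library left out and, added after seeing the data, sums over near copies, joined where 1 gene shared at least 10% of its 50-base stretches. Protein sequences were not used here.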

Additional observations from a re-analysis of the deposited data

Results flagged for a closer look

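The response of 22 member and contrast combinations differed between the cell types by a test of the difference itself, given as BMDC minus B cells on the log2 scale. For MSA2 against Control these were 8 of 10 members, beside 37% of 17740 genes. For the combination they were 7 of 10 against Control, beside 3.04% of genes, and 7 of 10 against MSA2, beside 24.1%. For MSA2 against Control the differences were 1.63 for Aim2, 1.36 for Ifi203, -4.05 for Ifi204, 2.58 for Ifi205, -1.54 for Ifi207, 2.23 for Ifi209, 2.15 for Ifi213 and 1.06 for Mndal. Aim2 and Ifi209 were higher with MSA2 in BMDC and lower in B cells.

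For the combination against Control the differences were 0.86 for Aim2, 1.55 for Ifi204, 2.77 for Ifi205, 1.62 for Ifi207, 1.17 for Ifi209, 1.97 for Ifi211 and 1.43 for Ifi213. That of Ifi204 (adjusted p = 0.0250) lost its call without each of 5 libraries in turn (B cell Control 1 and 2, B cell combination 1 and 3, BMDC combination 1), with adjusted p-values of 0.0534 to 0.121. That of Ifi213 (adjusted p = 0.0382) lost it without each of 11 libraries, with adjusted p-values of 0.0514 to 0.258.

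For the combination against MSA2 the differences were -0.78 for Aim2, -0.82 for Ifi203, 5.60 for Ifi204, 3.16 for Ifi207, -1.06 for Ifi209, 1.59 for Ifi211 and -0.55 for Mndal. That of Mndal (adjusted p = 0.00543) lost its call without BMDC combination replicate 2 (-0.37, adjusted p = 0.0572). The B cell MSA2 libraries, with their higher sums of monocyte, neutrophil, T cell and NK cell markers, enter the contrasts with MSA2.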

How the results depend on the processing

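No member's called change turned its direction under any alternative. Of the member fold changes recomputed, 1792 kept their side of the threshold, 47 lost a call and 47 gained one. Counts of members called moved by over 1.5 times in these cases, and the cause was not tested unless the construction shows it. A minimum change of 1.5-fold (glmTreat), a stricter question by construction, left 5 of 8 members (and 2837 of 7016 genes) for MSA2 against Control in B cells, 4 of 7 (2614 of 5985) for the combination against MSA2 there, 5 of 8 (427 of 1883) for the combination against Control in BMDC, and 3 of 7 (153 of 539) and 4 of 7 (2002 of 4275) for the cell type differences in the combination against Control and against MSA2. Between the combination and Control in B cells (0 members and 171 genes called) DESeq2 gave 2 members and 391 genes, and the compared groups alone 1 and 212. In BMDC, where 0 members and 0 genes were called between the combination and MSA2, DESeq2 gave 7 members and 162 genes, and no filter 8 and 561. Leaving out each library in turn gave ranges of 0 to 1 and 0 to 3 for these counts. With the title suffix as a replicate block, no member's call changed in B cells for the combination against MSA2, the comparison whose same-suffix libraries correlated most. Same-suffix libraries correlated less elsewhere. With the block Mndal in the BMDC combination against Control was called (0.41, adjusted p = 0.0189). Ifi213 lost its difference between cell types for the combination against Control (1.46, adjusted p = 0.0689), and Ifi203 and Mndal gained theirs (0.53 and 0.52). Low BMDC counts of Ifi208, Ifi213 and Ifi205 limit those changes.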
